A study of Homo sapiens with 8 samples.

Results

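The 10 genes described here are 5 repressors that drive the epithelial-to-mesenchymal transition (EMT), SNAI1, SNAI2, ZEB1, ZEB2 and TWIST1, and 5 factors that hold cells in the epithelial state, GRHL2, OVOL1, OVOL2, ESRP1 and ESRP2. They were taken by gene symbol, with earlier results of these data known. All 10 were found among the 58780 genes of the deposited tables. The libraries came from H1, an established human embryonic stem cell line, in a study whose title concerns pharyngeal endoderm, the foregut tissue that forms the pharyngeal pouches. Growth and differentiation conditions are not given in the sources used here. There were 4 stages with 2 libraries each. They were the undifferentiated cells (hESC), hDE, an abbreviation in common use for definitive endoderm, hAFE, in common use for anterior foregut endoderm, and hPFE, a label that is not spelled out and is read here only as the pharyngeal stage of the title. No transgene, deletion or added agent is named for any group, and all groups share the H1 genotype. Whether replicate libraries stand for separate cultures is not stated, so a p-value here reflects only how much the libraries of a stage differed, and part of that may be technical.

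During EMT, cells lose E-cadherin and tight junctions and gain N-cadherin, vimentin and a matrix rich in fibronectin and collagen. SNAI, ZEB and TWIST proteins bind E-box sequences, and the SNAI and ZEB zinc fingers recognise the form CAGGTG, read CACCTG on the other strand, in genes such as CDH1. GRHL2 and the OVOL zinc finger proteins restrain ZEB1 and keep junction genes on, ESRP1 and ESRP2 set the epithelial splice forms of genes such as FGFR2 and CD44, and the miR-200 family and miR-205 target the ZEB transcripts. The formation of definitive endoderm resembles gastrulation, in which epiblast cells pass through an EMT before the endoderm becomes an epithelium again.

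The ZEB transcripts carry the sequences through which the microRNA arm of this circuit acts, so those sequences are shown first. Mature microRNAs, from RefSeq (GRCh38.p14), are printed 5′ to 3′ with the seed, bases 2 to 8, in capitals. The miR-200 family falls into 2 seeds that differ at 1 base, and miR-205 has a seed of its own.
hsa-miR-200b-3p: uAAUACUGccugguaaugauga
hsa-miR-200c-3p: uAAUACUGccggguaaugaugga
hsa-miR-429: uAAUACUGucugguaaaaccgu
hsa-miR-200a-3p: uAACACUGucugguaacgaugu
hsa-miR-141-3p: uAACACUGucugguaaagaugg
hsa-miR-205-5p: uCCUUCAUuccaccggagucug

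The complement of the AAUACUG seed, CAGTATT on the transcript strand, occurred 6 times in the ZEB1 3′UTR (2549 bases, longest GENCODE 29 form) and 5 times in that of ZEB2 (5370 bases). Of the other genes with a 3′UTR within 20% of the same length, 0% of 2401 held as many as ZEB1 and 0% of 1116 as many as ZEB2, while 25.9% and 45.8% held at least 1. The complement of the AACACUG seed, CAGTGTT, occurred 3 times in ZEB1 and 4 times in ZEB2, a number reached by 0.625% and 1.25% of genes of like length. The miR-205 seed match, ATGAAGG, occurred 1 time in ZEB1 and 0 times in ZEB2. Among the other 8 members, SNAI2 held 1 CAGTATT, GRHL2 held 1 CAGTGTT, and ESRP1 held 1 of each. A few of the ZEB sites are shown with the seed match in capitals. They lie at chr10:31527620-31527641, chr10:31528564-31528585 and chr10:31528784-31528805 on the plus strand and at chr2:144388545-144388566 and chr2:144388709-144388730 on the minus strand (hg38).
ZEB1 site 1: tgttttatcttatCAGTATTat
ZEB1 site 2: tcttcaaacctggCAGTATTaa
ZEB1 site 3: agatttgatttaaCAGTGTTat
ZEB2 site 1: tcattaattttgtCAGTATTac
ZEB2 site 2: tgccatccttgtaCAGTGTTaa

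Of the 10 members, ZEB1 and ZEB2 matched the RefSeq promoter table (GRCh38.p14, 250 bases before to 50 after a start). An E-box of the form CAGGTG or CACCTG, which is the same box on the other strand, was present in 2 of 7 ZEB1 windows and in none of 1 ZEB2 window, against 20.6% of 35116 windows of that length. The ZEB1 window at chr10:31318966-31319265 (plus strand) held 3, at -242, -85 and 34 from the start, a number found in 0.635% of all windows. It held the most boxes of the 7 ZEB1 windows. The 0.635% is a rate for single windows and makes no allowance for a choice among 7. Whether SNAI1, whose protein reads this box, acts on ZEB1 was not tested. The boxes are in capitals. A match describes the letters and is not evidence of binding. ACCGGT, a core of the GRHL motif, was in none of the 8 windows and in 1.83% of all windows.
ZEB1 window: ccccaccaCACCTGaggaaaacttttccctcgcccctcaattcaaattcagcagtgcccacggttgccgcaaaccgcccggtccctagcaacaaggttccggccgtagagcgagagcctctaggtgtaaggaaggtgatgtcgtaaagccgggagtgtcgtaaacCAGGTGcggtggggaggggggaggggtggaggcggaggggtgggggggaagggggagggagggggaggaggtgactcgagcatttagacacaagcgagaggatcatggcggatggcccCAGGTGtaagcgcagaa

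Library totals ran from 12687161 to 17802900 estimated counts, of which mitochondrial ribosomal RNA took 10.59% to 18.38%. The hESC and hDE libraries are marked in their titles as re-analysed, and the hAFE and hPFE libraries are not. Origin and stage therefore cannot be told apart in hAFE against hDE and in hPFE against hESC. Replicate libraries differed more at the later stages, where the SD of their log2 difference over genes was 0.594 (hAFE) and 0.578 (hPFE), than at the earlier ones, at 0.288 (hESC) and 0.244 (hDE). Of 12 landmark genes 9 were called in hDE against hESC, 10 in hAFE against hDE, and 1 in hPFE against hAFE. Of all genes 41.9%, 30.2% and 7.49% were called in these comparisons, so the last count was near the share over all genes. POU5F1 stood at 858 and 942 CPM (counts scaled to library size) in hESC, SOX17 at 126 and 148 in hDE, and PAX1, a pharyngeal pouch gene, at 26.5 and 17.3 in hPFE against at most 0.658 elsewhere. TBX1, another pharyngeal gene, stood at 0.727 and 6 CPM in hAFE and 1.21 and 1.95 in hPFE, and overlapped between them.

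SNAI1 and SNAI2 encode closely related zinc finger repressors, and they peaked at different stages. SNAI1 (ENSG00000124216.3, chr20:49982999-49988886, hg38) stood at 1.74 and 1.3 CPM in hESC, 4.81 and 5.21 in hDE, 0.396 and 0.512 in hAFE, and 2.19 and 0.649 in hPFE, with library 1 given first here and below. Both hDE libraries lay above all others, and the hAFE libraries lay below all others. SNAI2 (ENSG00000019549.11, chr8:48917604-48921740) stood at 0.781 and 1.02 CPM in hESC, 0.445 and 0.724 in hDE, 0.925 and 0.366 in hAFE, and 4.74 and 14.1 in hPFE. The hPFE libraries were the highest, and those of the other 3 stages overlapped or lay close together, on 5 to 18 counts a library.

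ZEB1 and ZEB2, large zinc finger and homeobox repressors, differed in hDE and had their highest means in hPFE, where the first library lay far above the second. ZEB1 (ENSG00000148516.21, chr10:31318495-31529814) stood at 0.901 and 1.58 CPM in hESC, 12.8 and 8.47 in hDE, 7.86 and 1.75 in hAFE, and 31.4 and 4.04 in hPFE. ZEB2 (ENSG00000169554.19, chr2:144364364-144524583) stood at 1.86 and 3.28 CPM in hESC, 0.712 and 0.797 in hDE, 5.42 and 1.54 in hAFE, and 47 and 4.91 in hPFE. For ZEB1 the hDE libraries lay above both hESC libraries, and for ZEB2 they were the lowest of all. In hAFE and hPFE the first library was the higher for both genes, so hPFE overlapped hAFE for both genes. For ZEB1 hPFE also overlapped hDE, as its second library lay below both hDE libraries. TWIST1 (ENSG00000122691.12, chr7:19020991-19117672), a basic helix-loop-helix regulator of mesoderm and neural crest, was near its detection limit, with 1 and 2 counts in hESC, 4 and 8 in hDE, 2 and 2 in hAFE, and 23 and 2 in hPFE. It failed the count filter and was not tested. The ratio of hPFE to hESC was 9.43 on 25 against 3 counts, with a 95% interval for counting error of 2.88 to 48.8, and it rests on the first hPFE library.

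**Figure D1:**
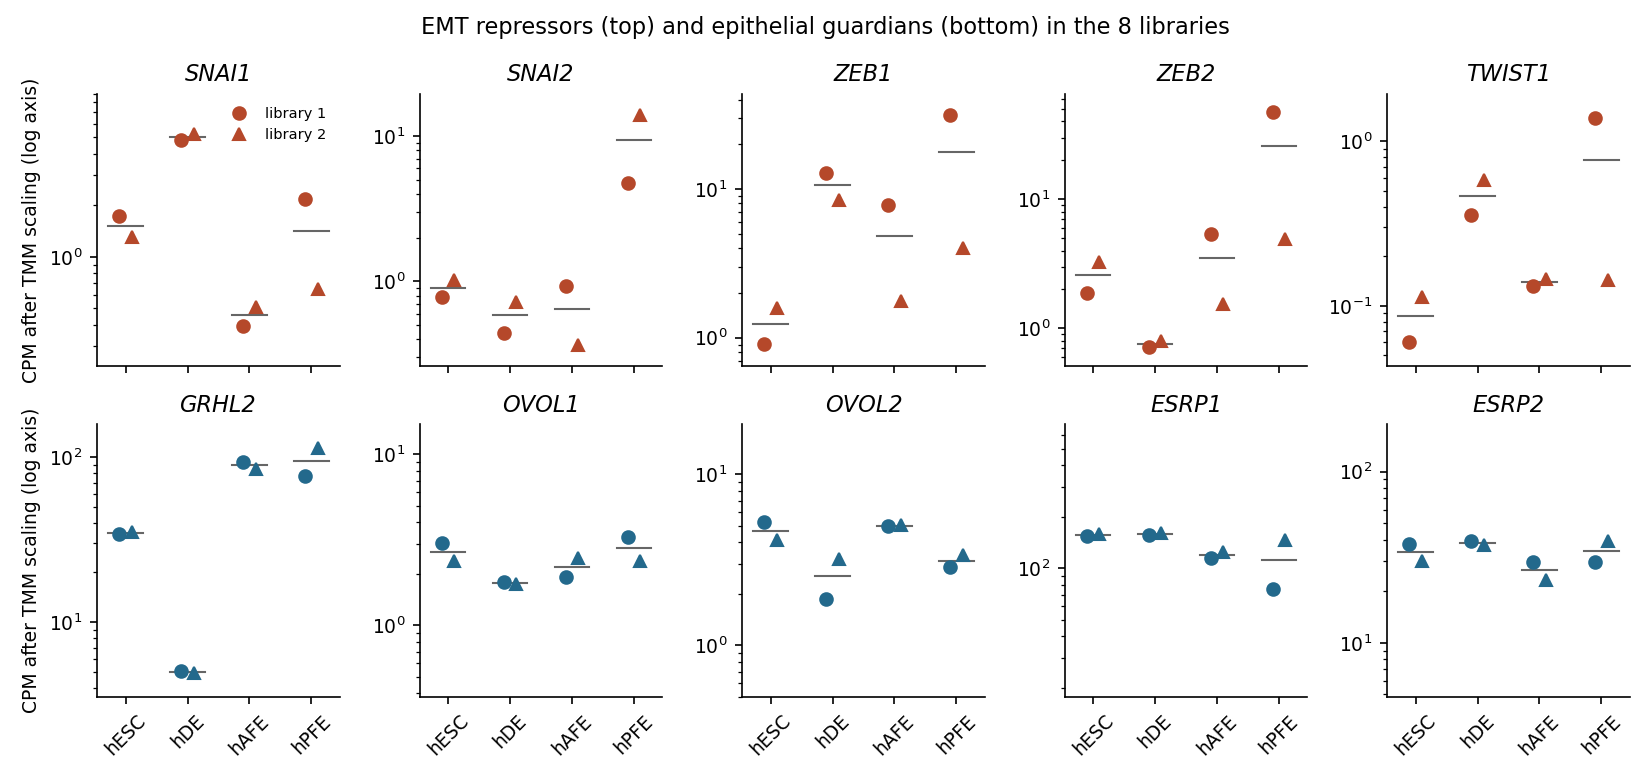
CPM after TMM scaling (log axis) of the 5 EMT repressors (top row) and the 5 epithelial guardians (bottom row) by stage, with circles for library 1, triangles for library 2 and a line at the mean. The GRHL2 libraries of hDE, at 5.07 and 4.92 CPM, lie below all others, while the ZEB1 and ZEB2 libraries of hPFE are far apart.

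Of the guardians, GRHL2, a grainyhead transcription factor of surface epithelia, varied most. GRHL2 (ENSG00000083307.11, chr8:101492432-101669726) stood at 34 and 34.9 CPM in hESC, 5.07 and 4.92 in hDE, 93.5 and 84.4 in hAFE, and 76.8 and 113 in hPFE. The order was hDE lowest, then hESC, then hAFE and hPFE, which overlapped. The mean of its highest stage was 19 times that of its lowest, against 1.42 to 1.98 times for the other 4 guardians.

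OVOL1 and OVOL2 were low throughout. OVOL1 (ENSG00000172818.9, chr11:65787022-65797219) stood at 3 and 2.37 CPM in hESC, 1.78 and 1.74 in hDE, 1.92 and 2.49 in hAFE, and 3.28 and 2.38 in hPFE. OVOL2 (ENSG00000125850.10, chr20:17956979-18059188) stood at 5.23 and 4.13 CPM in hESC, 1.87 and 3.19 in hDE, 4.96 and 5.05 in hAFE, and 2.85 and 3.39 in hPFE. For both genes hDE had the lowest mean. The OVOL2 libraries of hDE overlapped those of hPFE, and the hESC libraries of each gene overlapped a later stage.

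ESRP1 and ESRP2, RNA-binding splicing regulators, were well expressed at every stage. ESRP1 (ENSG00000104413.16, chr8:94641074-94707466) stood at 155 and 159 CPM in hESC, 156 and 162 in hDE, 115 and 124 in hAFE, and 76.1 and 147 in hPFE. ESRP2 (ENSG00000103067.13, chr16:68229111-68238102) stood at 38 and 30 CPM in hESC, 39.4 and 37.4 in hDE, 29.7 and 23.2 in hAFE, and 29.5 and 39.4 in hPFE. The hESC and hDE libraries overlapped for both genes, and the hAFE libraries lay below those of hDE for both.

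Genes can be set against each other within a library by TPM, a transcript abundance that allows for gene length. All 5 guardians together exceeded the repressors in all 8 libraries. Their summed TPM was 37.2 and 38.3 in hESC, 23.7 and 27.9 in hDE, 51.8 and 47.4 in hAFE, and 35.9 and 89.2 in hPFE. The repressors summed to 1.01 and 1.28 TPM in hESC, 2.18 and 2.37 in hDE, 2.61 and 1.37 in hAFE, and 13.3 and 8.96 in hPFE. TPM is not scaled like CPM, so these sums do not give the size of a change between libraries or stages. ESRP1 had means of 157 and 159 CPM in hESC and hDE, but 24.7 and 18.9 TPM. In hPFE it stood at 76.1 and 147 CPM, but at 15.3 and 44.5 TPM. The ratio of guardians to repressors was lowest in hPFE, at 2.69 and 9.96, and next in hDE, at 10.9 and 11.8. It was 19.8 and 34.6 in hAFE and 36.8 and 29.9 in hESC, which overlapped. ESRP1 alone made up 42.5% to 73.7% of the guardian sum. Without ESRP1 and ESRP2 the order differed, as GRHL2, OVOL1 and OVOL2 together were 6.78 and 5.38 times the repressor sum in hESC, 0.555 and 0.764 times in hDE, 6.79 and 12 times in hAFE, and 1.01 and 3.33 times in hPFE. On that count the repressors exceeded the guardians in both hDE libraries, and hDE was the lowest stage.

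The pair of GRHL2 and ZEB1, which repress each other in epithelial cells, changed order in 1 stage. GRHL2 TPM was 55.7 and 19.5 times that of ZEB1 in hESC, 0.462 and 0.614 times in hDE, 11.1 and 25 times in hAFE, and 2.69 and 25.7 times in hPFE. Only in the hDE libraries did ZEB1 exceed GRHL2. Against ZEB2, GRHL2 was the higher in all 8 libraries, by 1.77 to 28.8 times. The leading repressor also differed, as SNAI1 held 50.5% and 32% of the repressor sum in hESC and 45% and 46.8% in hDE, ZEB1 held 48.7% and 38% in hAFE, ZEB2 held 47.6% in the first hPFE library, and SNAI2 held 69.8% in the second.

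**Figure D2:**
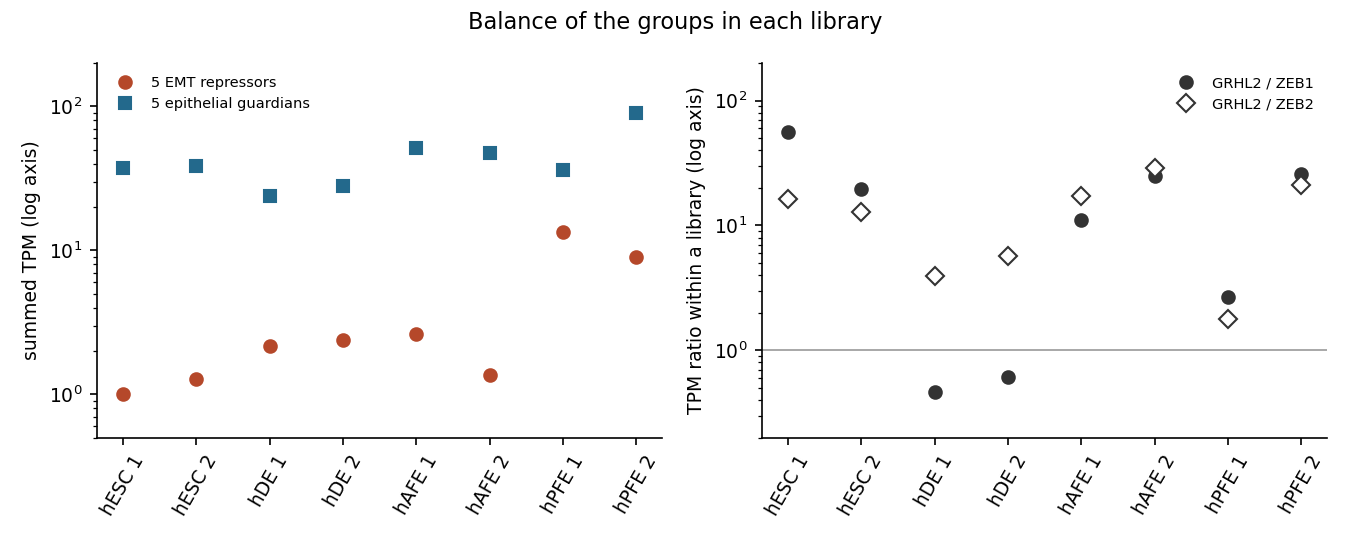
Left, summed TPM of the 5 EMT repressors (circles) and of the 5 guardians (squares) in each library. Right, TPM of GRHL2 divided by that of ZEB1 (filled circles) and of ZEB2 (open diamonds), with a line at 1, which only the GRHL2 to ZEB1 ratios of the hDE libraries, 0.462 and 0.614, lie below. All axes of values are logarithmic.

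On entry into hDE, SNAI1 and ZEB1 were higher and GRHL2 was lower, while ESRP1 and ESRP2 levels were close to those of hESC. By edgeR's quasi-likelihood test with Benjamini-Hochberg adjustment over 17446 genes, 2 of the 4 tested repressors rose and 1 of 5 guardians fell, where 41.9% of all genes were called, 20.3% higher and 21.6% lower. GRHL2 fell by 2.78 on the log2 scale (SE 0.213, adjusted p = 0.000111), from a mean of 34.5 to 5 CPM. SNAI1 rose by 1.72 (SE 0.528, adjusted p = 0.033) and ZEB1 by 3.08 (SE 1.03, adjusted p = 0.0447). The GRHL2 call was kept in all 18 alternatives. The SNAI1 call was lost with DESeq2 and on log2(TPM + 0.1), and the ZEB1 call on log2(TPM + 1). Without any single hESC or hDE library, the adjusted p of SNAI1 was 0.11 to 0.182 and that of ZEB1 0.098 to 0.202. In bulk RNA, fewer cells of a kind and less RNA per cell cannot be told apart.

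The remaining members did not pass in hDE against hESC. The log2 difference was -1.76 for ZEB2 (SE 1.15, adjusted p = 0.255), -0.6 for SNAI2, -0.61 for OVOL1, -0.88 for OVOL2 (adjusted p = 0.0768), 0.02 for ESRP1 and 0.18 for ESRP2. ZEB2 was lower in both hDE libraries and passed when only these 4 libraries were fitted (adjusted p = 0.00438), as did OVOL2 (0.0325). TWIST1, which came into the test in 8 alternatives, passed in 1 of them, without the second hPFE library (2.33, adjusted p = 0.046), and had adjusted p from 0.0931 to 0.419 in the other 7. The median over the tested members was 0.56 for the repressors and -0.61 for the guardians, beside -0.01 for all genes.

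From hDE to hAFE, SNAI1 and GRHL2 turned back. SNAI1 fell by 3.45 on the log2 scale (SE 0.604, adjusted p = 0.00471), from a mean of 5.01 to 0.454 CPM, below its hESC level. GRHL2 rose by 4.15 (SE 0.22, adjusted p = 3.29e-05), from a mean of 5 to 88.9 CPM, above its hESC level. The hAFE and hESC stages were not tested against each other, and they also differ in origin. The libraries of these genes did not overlap between hDE and hAFE, and both calls were kept in all 18 alternatives. These were 1 of 4 repressors and 1 of 5 guardians by edgeR, where 30.2% of all genes were called, 15% higher and 15.2% lower. ZEB1 did not pass at -1.13 (SE 0.932, adjusted p = 0.393), and ZEB2, at 2.2 (SE 1.15, adjusted p = 0.187), passed without either hPFE library (adjusted p = 0.0435 without library 1 and 0.0407 without library 2). OVOL2, at 0.97, had an adjusted p of 0.0703, and it and OVOL1 passed on log2(TPM + 1), a scale that raised the median of all genes by 0.496.

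ESRP1 and ESRP2 were lower in hAFE on counts, with log2 differences of -0.41 (adjusted p = 0.28) and -0.54 (adjusted p = 0.0863). On log2(TPM + 1) they stood at 0.42 and 0.29, which lay below the raised median of all genes given above. ESRP1 passed as lower without either hPFE library (adjusted p = 0.0233 without library 1 and 0.0242 without library 2). SNAI2 and OVOL1 differed by 0.14 and 0.32 and did not pass. The medians were -0.49 for the tested repressors and 0.32 for the guardians, beside 0.01 for all genes.

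From hAFE to hPFE, SNAI2 was the 1 tested member that passed. It rose by 3.83 on the log2 scale (SE 0.667, adjusted p = 0.0182, edgeR), a fitted 14.2-fold difference, with both hPFE libraries above both hAFE libraries. Of all genes 7.49% were called, 4.77% higher and 2.71% lower, and of the members 1 of 4 repressors and 0 of 5 guardians. At an unadjusted p under 0.05 no guardian passed either, and DESeq2 called none. The SNAI2 call was lost when only these 4 libraries were fitted (adjusted p = 0.115), on log2(TPM + 1) (0.0508) and with a weight per stage (0.0599), and it held without each library.

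The other repressors were higher in mean but unevenly so. The log2 differences were 1.65 for SNAI1 (adjusted p = 0.141), 1.88 for ZEB1 (SE 0.935, adjusted p = 0.248) and 2.89 for ZEB2 (SE 0.979, adjusted p = 0.113). Without the first hPFE library, ZEB1 stood at -0.26 (adjusted p = 0.875). Without the second, ZEB2 stood at 3.73 (adjusted p = 0.0153), SNAI1 at 2.24 (0.0295) and TWIST1 at 3.24 (0.047), and ESRP1 at -0.66 (0.0322) against -0.1 with all libraries. In the other 7 alternatives that tested TWIST1 it stood at 2.36 to 2.49 (adjusted p = 0.0883 to 0.399). GRHL2 differed by 0.09 (SE 0.183), OVOL1 by 0.37, OVOL2 by -0.68 and ESRP2 by 0.38. The medians were 2.38 for the tested repressors and 0.09 for the guardians, beside -0.03 for all genes.

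Over the whole course, hPFE held more SNAI2, ZEB1 and ZEB2 than hESC and more GRHL2 as well. By edgeR, 3 of 4 tested repressors and 1 of 5 guardians rose in hPFE against hESC, where 45% of all genes were called, 21.6% higher and 23.3% lower. SNAI2 rose by 3.37 (SE 0.637, adjusted p = 0.00463), ZEB1 by 3.83 (SE 1.05, adjusted p = 0.0202), ZEB2 by 3.33 (SE 0.998, adjusted p = 0.0284) and GRHL2 by 1.46 (SE 0.188, adjusted p = 0.000996). For each of these genes both hPFE libraries lay above both hESC libraries. The SNAI2 and GRHL2 calls were kept in all 18 alternatives.

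The ZEB calls depended on single libraries. Without the first hPFE library, ZEB1 stood at 1.69 (adjusted p = 0.138) and ZEB2 at 0.92 (adjusted p = 0.317). ZEB1 also missed without hESC library 1 or 2 (adjusted p = 0.123 and 0.0919), as did ZEB2 (0.155 and 0.107), which missed further without hDE library 1 or 2 (0.0528 and 0.0524). SNAI1 differed by -0.08, OVOL1 by 0.08, OVOL2 by -0.58, ESRP1 by -0.49 (adjusted p = 0.163) and ESRP2 by 0.02, and none passed. Without the second hPFE library ESRP1 stood at -1.06 (adjusted p = 0.00199) and TWIST1 at 3.86 (adjusted p = 0.00949). With no count filter TWIST1 passed on all 8 libraries (3.06, adjusted p = 0.00876), and with any of 6 other libraries left out it did not (adjusted p = 0.0645 to 0.23). The medians were 3.35 for the tested repressors and 0.02 for the guardians, beside 0.02 for all genes. The comparisons share stages with each other, so their values are not independent.

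**Figure D3:**
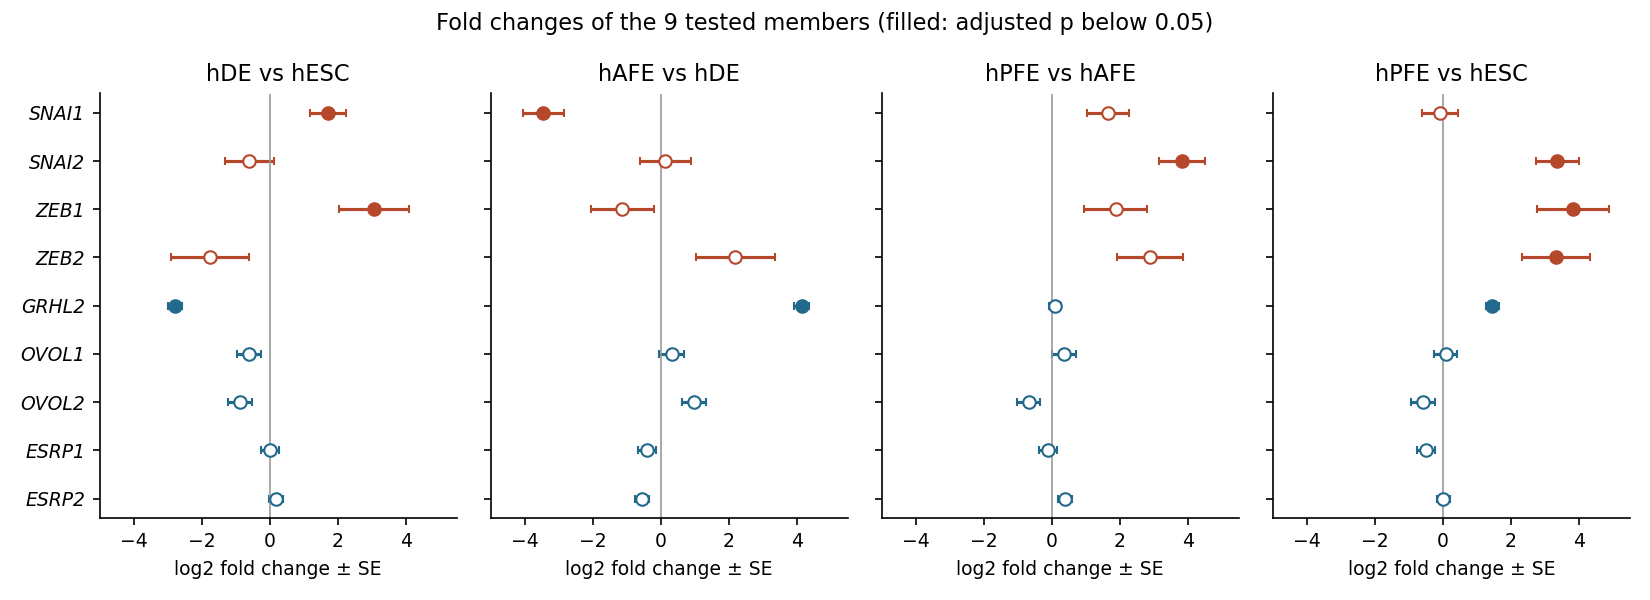
Log2 fold change of the 9 tested members in the 4 comparisons, positive where the first stage named is higher, with bars of 1 SE. Filled symbols passed an adjusted p of 0.05, as GRHL2 did in 3 comparisons, at -2.78, 4.15 and 1.46.

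Among the tested members, ZEB1 and ZEB2 differed most between the hPFE libraries. In the first library ZEB2 was 9.58 times, ZEB1 7.77 times and SNAI1 3.37 times its level in the second, and the ZEB1 and ZEB2 gaps exceeded those of 99.1% and 99.3% of the 14706 genes at 1 CPM or more. SNAI2 went the other way and was 2.97 times higher in the second library, as were ESRP1 at 1.93 times and GRHL2 at 1.47 times. The same direction was seen for the ZEB genes in hAFE, where the first library held 4.48 times the ZEB1 and 3.53 times the ZEB2 of the second.

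Mesenchymal genes differed between the hPFE libraries beside the ZEB genes. Of 18 mesenchymal target genes 15 were higher in the first library, with a median ratio of 2.1, and COL3A1, a fibrillar collagen, stood at 1232 CPM against 29.7. The summed level of that list went the other way, at 10400 CPM in the first and 13900 in the second, as did FN1, at 5743 and 11640. Of 24 epithelial junction and surface genes 18 were higher in the second library, with a median ratio of the first to the second of 0.83. CDH1, which encodes E-cadherin, stood at 222 CPM in the first and 285 in the second. Over all genes at 1 CPM or more, the log2 difference between these libraries had a median of 0 and an SD of 0.732. Of 10 mesenchyme and paraxial mesoderm markers, 8 had at least 20 counts and 6 of these were higher in the first library, including PRRX1 at 7.59 against 0.216 CPM and DCN at 4.43 against 0.361. LUM, a keratan sulphate proteoglycan, was higher in the second at 87.5 against 11.4, and the summed level of the list was 58.5 CPM in the first and 107 in the second. That sum was 1.34 to 4.41 in hESC and hDE, and 39.1 and 1.83 in hAFE, where MEOX1 and OSR1 at 20.6 and 16.2 CPM made up most of the first library's sum. In hDE, PRRX1 and DCN were at 0 in both libraries. Of the 6 tested genes of that list, 4 rose and 1 fell in hPFE against hESC, where 45% of all genes were called. Against hAFE 2 rose and 0 fell, where 7.49% of all genes were called. They were LUM, by 7.84, and POSTN, by 7.05 (adjusted p = 0.0163 and 0.0242, edgeR). The 8 neural crest markers summed to 14.3 and 15.7 CPM in hPFE, beside 5.63 to 21 elsewhere. SOX10, FOXD3 and TFAP2B were at 0 in both hPFE libraries, NGFR (5.95 against 0.794) and PAX3 (1.82 against 0.216) were higher in the first, and SOX9 was higher in the second (5.28 against 13.9). Of the 5 tested, 2 rose and 2 fell in hPFE against hESC, where 45% of all genes were called. SOX9 and TFAP2A rose, by 1.48 and 3.69 (adjusted p = 0.0443 and 0.0137, edgeR). FOXD3 and SOX10 fell, from 269 and 28 counts in hESC to 0 in hPFE. The part of mesenchymal or neural crest cells in the repressor levels was not tested.

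**Figure D4:**
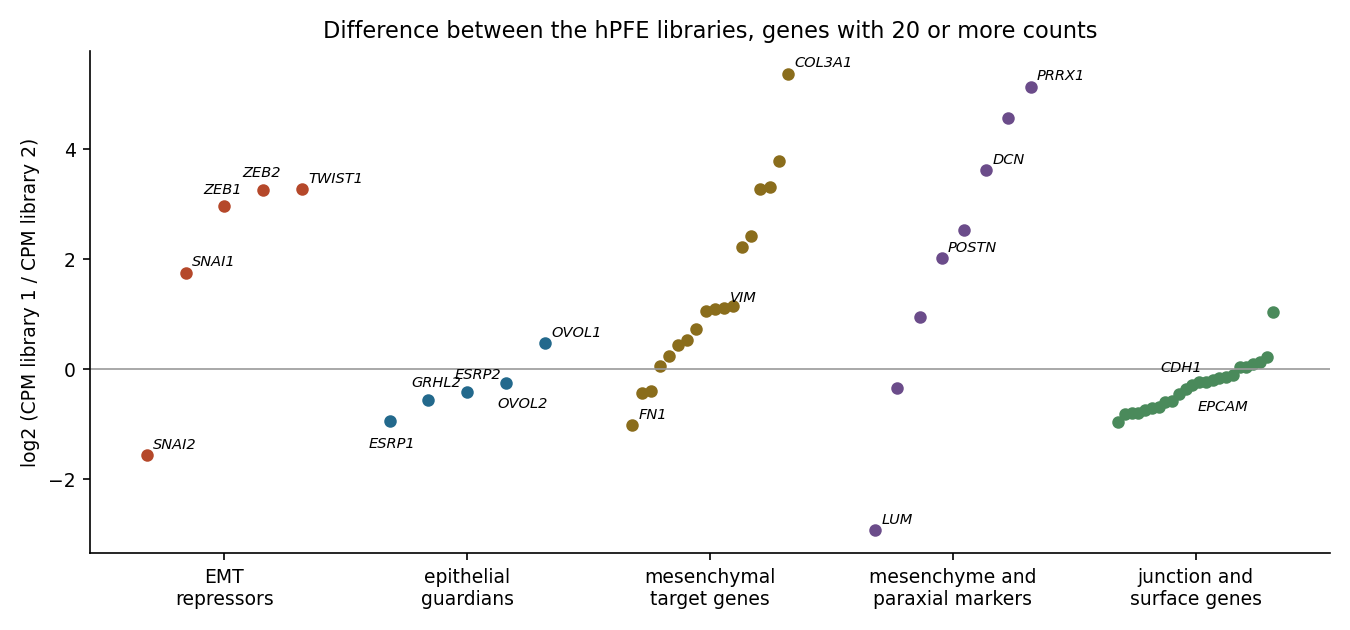
Log2 ratio of CPM in hPFE library 1 to library 2 for genes with at least 20 counts over both, one point per gene, in 5 lists. Of the 5 repressors 4 lie above 0 and SNAI2 below it, while 4 of the 5 guardians and 18 of the 24 junction genes lie below 0.

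Genes that the members are known to control were counted from lists taken from general knowledge. Of 24 epithelial junction and surface genes, 7 fell and 4 rose in hDE against hESC, a share close to the 41.9% called among all genes. CDH1 fell by 3.14 on the log2 scale (SE 0.185, adjusted p = 4.75e-05, edgeR), and the tight junction genes CLDN4 and TJP3 fell by 5.95 and 4.15. EPCAM, DSP and OCLN were higher in hDE, at means of 222, 365 and 154 CPM against 86.9, 131 and 68.9. The summed level of the list was 1550 and 1580 CPM in hESC and 1670 and 1630 in hDE. In hAFE 8 rose and 1 fell against hDE, where 30.2% of all genes were called, among them CLDN4 by 6.92, TJP3 by 4.58, CDH1 by 2.03 and ST14, a surface protease, by 1.78. CDH1 and CLDN4 rose again in hPFE, by 1.17 and 1.86, and LLGL2 fell by 0.79. CDH1 then stood at a mean of 253 CPM in hPFE, beside 242 in hESC (log2 difference 0.06, adjusted p = 0.781). Medians over the list were -0.2, 0.12 and 0.33 in these 3 steps and 0.18 in hPFE against hESC, where 7 rose and 2 fell and 45% of all genes were called.

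Of 18 mesenchymal target genes 17 were tested, and the list did not move one way in hDE, where 7 rose and 6 fell. The shares called among all genes were 41.9%, 30.2%, 7.49% and 45% in the 4 comparisons. CDH2, which encodes N-cadherin, rose by 4.46 (SE 0.183, adjusted p = 1.66e-05), the matrix protein gene TNC by 6.2 and the actin-binding protein gene TAGLN by 6.14, while THY1 fell by 5.26. In hAFE 2 rose and 6 fell, with COL5A2 and TNC lower by 5.16 and 3.94 and ACTA2 higher by 7.89. In hPFE 9 rose and 0 fell against hAFE by edgeR, including FN1, which encodes fibronectin, by 4.75 (SE 0.363, adjusted p = 0.00134), COL1A1 by 3.7 and COL3A1 by 6.89. CDH2 did not pass there, at 369 against 358 CPM. Medians were -0.34, -0.14 and 2.03 in the 3 steps and 2.84 in hPFE against hESC, where 11 rose and 1 fell.

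**Figure D5:**
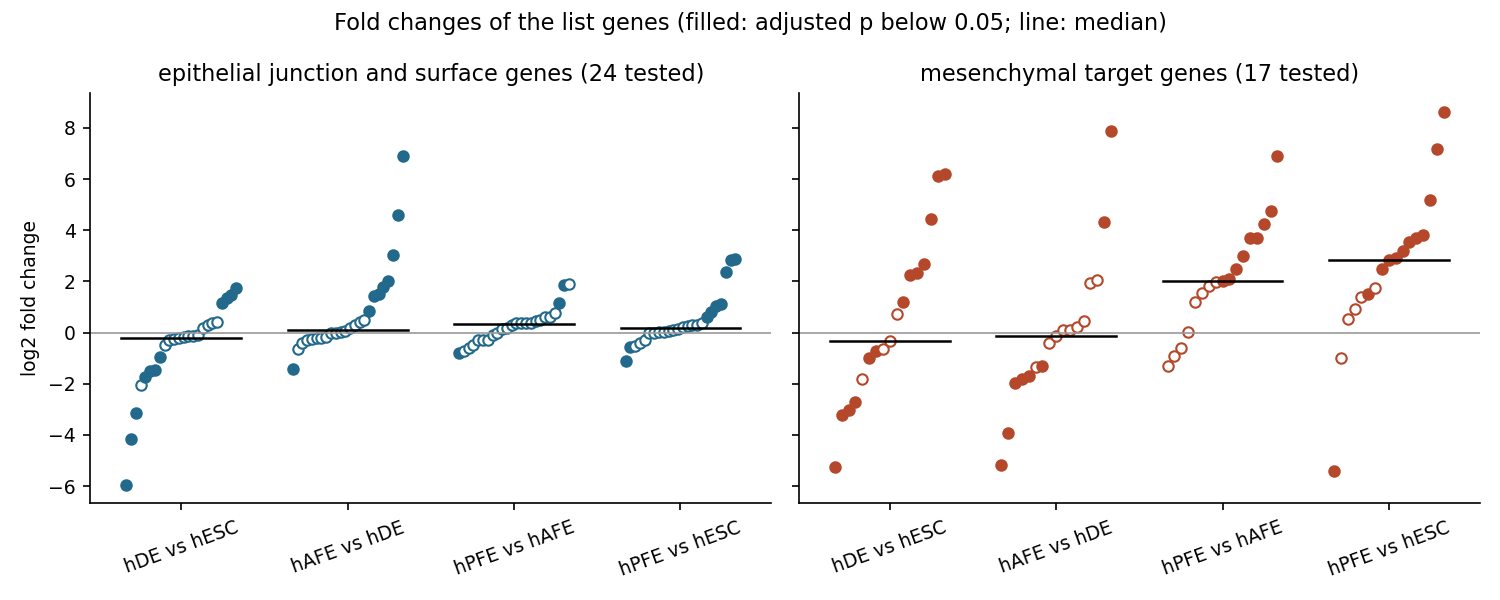
Log2 fold changes of the 24 epithelial junction and surface genes (left) and the 17 tested mesenchymal target genes (right) in the 4 comparisons, one point per gene in rising order, filled where the adjusted p was below 0.05, with a line at the median. In hPFE against hAFE the mesenchymal median is 2.03 and the junction median 0.33.

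The relatives of the members were read in the same way. Of 12 other EMT transcription factors 8 were tested, and in hDE 2 rose and 4 fell, where 41.9% of all genes were called. GSC, a homeobox gene of the organizer and endoderm, rose by 9.23 and KLF8 by 4.37, and both fell again in hAFE, by 7.86 and 5.41. TCF4, an E protein, fell by 1.56 in hDE and rose by 1.31 in hAFE. Of 11 other epithelial regulators 10 were tested. In hDE 1 rose and 1 fell, in hAFE 5 rose and 1 fell, in hPFE against hAFE 2 rose and 0 fell, and in hPFE against hESC 9 rose and 1 fell. Over all genes 41.9%, 30.2%, 7.49% and 45% were called in these comparisons. GRHL1, the grainyhead paralog, rose by 2.73 in hAFE (SE 0.5, adjusted p = 0.00564). GRHL3, another paralog, had 0 counts in hDE, where 3 counts over the stage would be 0.12 CPM, and was at least 13-fold higher in hAFE, then rose by 3.48 in hPFE (SE 0.324, adjusted p = 0.0039). KLF5 rose by 5.61 in hDE, fell by 1.41 in hAFE, and was 5.89 higher in hPFE than in hESC.

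Cofactors and partners of the members were counted next, beside 41.9% of all genes called in hDE against hESC and 30.2% in hAFE against hDE. Of 10 repressor cofactors 2 rose and 4 fell in hDE, with the corepressor CTBP2 lower by 1.54 and the demethylase KDM1A by 1.31, and 6 rose and 0 fell in hAFE, with KDM1A higher by 1.31 and the methyltransferase EZH2 by 1.39. Of 8 genes for SNAIL stability and turnover, 1 rose and 1 fell in hDE, FBXO11 by 0.83 and PAK1 by 1.23. In hAFE 2 rose and 0 fell. FBXL14, a ubiquitin ligase subunit that targets SNAI1, rose by 1.57 (SE 0.258, adjusted p = 0.0036, edgeR), from 4.02 to 11.9 CPM. GSK3B, a kinase that marks SNAI1 for decay, rose by 0.63, while CSNK1A1 and USP1 did not pass in either step. Among 6 other EMT-linked splicing factors, MBNL1 fell by 5.13 in hDE and rose by 5.6 in hAFE, while RBM24 rose by 6.94 and fell by 4.06. Of 8 genes spliced by the ESRP proteins, 5 rose and 1 fell in hDE and 2 rose and 1 fell in hAFE, and FGFR2 fell by 1.61 in hDE and rose by 1.45 in hAFE. Gene totals do not show which splice form was made.

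The host transcript of miR-205 followed GRHL2 in the direction of its calls. MIR205HG stood at 13.9 and 11.5 CPM in hESC, 1.25 and 0.869 in hDE, 57.2 and 137 in hAFE, and 85.5 and 161 in hPFE. Its hDE libraries were the lowest, and those of hAFE and hPFE overlapped. It fell by 3.6 in hDE (SE 0.598, adjusted p = 0.00285), rose by 6.52 in hAFE (adjusted p = 0.000303) and was 3.28 higher in hPFE than in hESC (SE 0.46, adjusted p = 0.0014). MIR200CHG, at the locus of miR-200c and miR-141, had 0 to 20 counts a library and passed as higher in hPFE than in hESC, at 3.15 (SE 1.06, adjusted p = 0.0428) on 33 against 4 counts. The hairpin genes themselves were not tested, and mature microRNAs were not measured in these libraries, so the sites printed above have no matching measurement.

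The genes whose profiles lay closest to each member over the 8 libraries were found by Pearson correlation of log2 CPM among 14466 protein-coding genes, as a description in which the points share stages and libraries. For GRHL2 they were TSPAN11, NAV2 and CTDSPL, with r from 0.991 to 0.994. CLDN7, a claudin of epithelial tight junctions, was closest to ESRP2 at r = 0.969, and IPCEF1 to ESRP1 at 0.997. COL6A1, a matrix collagen, was closest to SNAI1 at 0.986, SIK1 to SNAI2 at 0.989, CEP290 to ZEB1 and GOLIM4 to ZEB2, both at 0.967. DUSP26 was closest to OVOL1 at 0.982 and TSNARE1 to OVOL2 at 0.975.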

How the data were processed

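Ribosome-depleted total RNA had been made into strand-marked libraries with dUTP and sequenced from both ends, per the labels' protocols. RSEM, DESeq2 and hg38 are named, without versions, per the submitters' processing notes, and the gene tables have RSEM's columns. Aligner and strand setting are not given in the sources used here. In the authors' tables, deposited expected counts split reads that fit several genes, the deposited TPM values allow for length, and the deposited posterior standard deviation of the count was read as another column. Of 59526 rows, 58780 matched GENCODE 29, and the rest held 0 counts.

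Expected counts were rounded and filtered (filterByExpr, 17446 genes), then scaled by TMM and fitted in 1 model of 4 stages with edgeR 4.0.16 (quasi-likelihood test, Benjamini-Hochberg over all genes, threshold 0.05, 4 residual degrees of freedom) in R 4.3.3. Sharing the spread assumes that stages vary alike. The SE is the absolute log2 fold change divided by the square root of F. Levels are CPM after TMM, and TPM is used as deposited. Intervals and floors (3 counts) describe counting error alone, because reads lacking molecular identifiers can be copies of 1 molecule. Alternatives were RLE scaling, DESeq2 1.42.0, other count filters, only the 4 libraries compared, a replicate block, limma 3.58.1 on log2(TPM + 1) and log2(TPM + 0.1), no structural or mitochondrial genes, and each library left out. A voom fit that weights each stage was chosen after seeing the data.

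The members and lists were chosen with earlier results of these data known. Every member is named. From other lists, the rule names up to 4 called genes of largest change that reach 5 CPM in the higher stage, and up to 2 well expressed genes that missed the threshold. MIR200CHG, GRHL3 in hAFE, EPCAM, DSP, OCLN and FN1 in hDE, SOX10 and TFAP2A in hPFE, VIM, PRRX1 and DCN were added after their values were seen. The same holds for the CPM of single libraries in hPFE and hAFE. Lists not described further are endothelial and blood markers and neural markers. In hPFE against hESC 0 rose and 3 fell of the 4 tested in the first list, and 0 and 0 of the 4 tested in the second. Of all genes 45% were called there, 23.3% lower. Of 3 antisense partners ZEB1-AS1 was tested and did not pass in any comparison. ZEB1, ZEB2 and OVOL1 have antisense neighbours, whose reads could be mixed with theirs if strand was not used in counting.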

Additional observations from a re-analysis of the deposited data

How the results depend on the processing

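No result changed direction while past the threshold. Of the values for single members, 251 of 288 kept their direction and side of the threshold when a library was left out and 37 did not, and under the other alternatives 315 of 358 did and 43 did not. With a library left out, genes called ranged from 3695 to 8465 in hDE against hESC, 2435 to 6363 in hAFE against hDE, 479 to 1552 in hPFE against hAFE and 3822 to 8422 in hPFE against hESC. Repressors called ranged from 0 to 3, 1 to 2, 1 to 4 and 1 to 4, and guardians from 1 to 1, 1 to 2, 0 to 1 and 1 to 2. A stage left with 1 library is assumed to vary like the others. Without any single hESC or hDE library 0 repressors were called in hDE against hESC.

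In hDE against hESC, DESeq2, log2(TPM + 1) and log2(TPM + 0.1) each called 1 repressor instead of 2, no filter and only the 4 libraries called 3, and only the 4 libraries, both TPM scales and the weight per stage each called 2 guardians instead of 1. In hAFE against hDE, log2(TPM + 0.1) called 8366 genes instead of 5267. DESeq2 and log2(TPM + 0.1) called 2 repressors and no filter 3 instead of 1, and only the 4 libraries called 2 guardians and both TPM scales 3 instead of 1. In hPFE against hAFE, where 1306 genes were called, no filter gave 3234, only the 4 libraries 52, log2(TPM + 1) 812, log2(TPM + 0.1) 805 and the weight per stage 447. Repressors called there were 2 by DESeq2, 4 with no filter, and 0 with only the 4 libraries, on log2(TPM + 1) and with the weight per stage. In hPFE against hESC, no filter called 2 guardians instead of 1 and 4 repressors instead of 3. Fitting only 4 libraries leaves fewer samples. The cause of the other differences was not tested.

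On log2(TPM + 1), which is not centred, the median of all genes was -0.27, 0.5, 0.14 and 0.36 in the 4 comparisons, and higher calls were 982 of 5412, 6457 of 7275, 726 of 812 and 5331 of 6771, beside 3533 of 7304, 2609 of 5267, 833 of 1306 and 3773 of 7842 on counts.

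The labels give each stage a library 1 and 2 but no shared culture, and deviations of same-numbered libraries correlated by -0.0434 to 0.0605, so the numbers were not taken as pairs. A fit with the number as a replicate block called 6909, 4941, 1072 and 7494 genes, with 2, 1, 1 and 2 repressors, and 1, 1, 0 and 1 guardians. The repressor not called under the block in hPFE against hESC was ZEB2, at 2.7 (adjusted p = 0.0531). Depth limits TWIST1, at 1 to 8 counts in 7 libraries, SNAI2, at 5 to 18 outside hPFE, and SNAI1, at 6 and 7 in hAFE.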
